A study of Mus musculus with 4 samples.

Results

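The genes examined here were the receptors through which colony-stimulating factors and related cytokines act on myeloid cells, with the ligands of one of them: Csf1r, Csf2ra, Csf2rb, Csf2rb2, Csf3r, Kit and Flt3, and the ligand genes Csf1 and Il34. They are 9 of the 21951 protein-coding genes in the annotation (GENCODE vM21, mouse build mm10), taken by name for their role in the pathway. For each gene, every ATAC-seq peak that overlapped the gene body or the 10 kb on either side of it was collected. ATAC-seq marks open DNA by inserting adapters with a transposase, and the 4 libraries came from bone marrow-derived macrophages (BMDMs), 2 of WT and 2 of H3.3cKO (cKO) genotype. The WT mice carried the floxed genes of histone H3.3 as H3f3a fl/fl H3f3b fl/fl without Cre, and the cKO mice carried the same alleles with LysM cre/cre, all on a C57BL/6 background and at 8 to 10 weeks of age. Cre expressed from the Lyz2 (LysM) locus acts only once myeloid cells express that gene, so the deletion arises during myeloid development. Marrow cells of both genotypes were grown with 20% L929-conditioned medium, which supplies CSF1, the ligand of one of the receptors examined. The general culture protocol gives 6 to 8 days, and the study names a single day within this range for its ATAC-seq. Nothing in the labels says whether a library pooled several animals.

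CSF1R is the receptor tyrosine kinase on which macrophages depend for survival and proliferation, and it binds both CSF1 and IL-34. KIT and FLT3 belong to the same kinase family and are best known from stem and progenitor cells, where they bind stem cell factor and FLT3 ligand. CSF2RA is the chain that binds GM-CSF, and it signals through a shared beta chain encoded by Csf2rb. Mice carry a second beta chain gene, Csf2rb2, whose product pairs with the IL-3 receptor. CSF3R is the receptor of G-CSF and is typical of neutrophils and their precursors. Accessible sites at such genes are found at promoters and at enhancers, and the intron that follows the first coding exon of Csf1r holds a well-known macrophage enhancer.

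The 4 lists held between 51955 and 64939 peaks. Start sites of the macrophage markers were under a peak for 10 of 10 genes in each library, and those of erythroid and stromal markers for 0 of 4. For neutrophil markers the count was 3 of 7 in both WT libraries and in cKO replicate 2, and 1 of 7 in cKO replicate 1. For progenitor or mast cell markers it was 2 of 5, for dendritic cell markers 2 of 4 and for T cell markers 1 of 4 in each library, and for B cell markers 1 of 4 in WT replicate 2 and in cKO replicate 1 and 0 of 4 in the others. The start regions of both targeted genes were under peaks in all libraries and had smaller areas in cKO, with log2 differences of −0.27 for H3f3a (limma, SE 0.053, adjusted p = 0.00346) and −0.70 for H3f3b (SE 0.114, adjusted p = 0.00148). These peaks do not measure the deletion itself.

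Marker loci also differed between genotypes by limma. Of the shared regions at macrophage markers 24 of 58 were lower and 5 higher, where 20.8% and 20.7% of all shared regions were. The lower ones included 10 at Cx3cr1, 5 at Mertk and 4 at Lyz2. At neutrophil markers 3 of 6 were lower and 0 higher, and at progenitor or mast cell markers 1 and 2 of 6. At dendritic cell markers 7 of 10 were lower and 1 higher, and at erythroid markers 1 and 3 of 8. At T cell markers 0 of 6 were lower and 1 higher, at stromal markers 0 and 1 of 2, and at B cell markers 0 and 0 of 3. Among start regions, the log2 difference was −2.42 at Lyz2, the locus that carries Cre in the cKO, and −0.74 at Mertk. It was −0.73 at S100a8, −0.80 at Zbtb46 and 1.06 at Siglech. The 2 shared start regions of progenitor or mast cell markers went opposite ways, 1.13 at Cd34 and −0.91 at Hdc. The part of such differences in the values of the receptor genes was not tested.

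Peaks of the 4 lists that overlapped were merged into regions, and the 9 genes held 41 of the 71243 regions of the genome, built from 134 peaks. A peak's size is its area, the surface under its significance curve, and it is given here as a percentile among all peaks of the same list, because areas grow with sequencing depth. No region at these genes was gained, meaning present in each cKO list and in no WT list, where 3.72% of all regions were. Lost regions, present in each WT list and in no cKO list, numbered 5 of 41, where 7.25% of all regions were lost. With lists of equal length 2 regions were lost, where 7.3% of all regions were, and with peaks above the median area of their list also 2, where 7.06% were. Another 27 of the 41 were called in all 4 libraries, where 62.9% of all regions were, and 9 had other combinations, of which 2 were in a single WT library and 5 in a single cKO library.

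In the 27 shared regions the summed peak area was compared between genotypes with limma after quantile normalization, and 2 regions were higher and 8 were lower in cKO at an adjusted p below 0.05. Over all 44820 shared regions of the genome, 20.7% were higher and 20.8% lower. The 8 lower regions lay at Csf1r (5), Csf2rb (1), Csf2rb2 (1) and Flt3 (1), and the 2 higher ones were over the start sites of Csf2ra and Flt3. The other 17 had log2 differences from −0.33 to 0.33, with adjusted p from 0.11 to 0.985. By percentile, both cKO libraries were above both WT libraries in 2 regions and below them in 14, where 22.2% and 35.1% of all shared regions were. The median log2 difference was −0.06 over the 27 regions and 0.01 over all shared regions. Without Csf1r, the 18 shared regions of the other 8 genes had a median of 0.006, with 3 lower and 2 higher. In these bulk libraries, fewer cells with an open site and a less open site in each cell cannot be told apart.

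**Figure D1:**
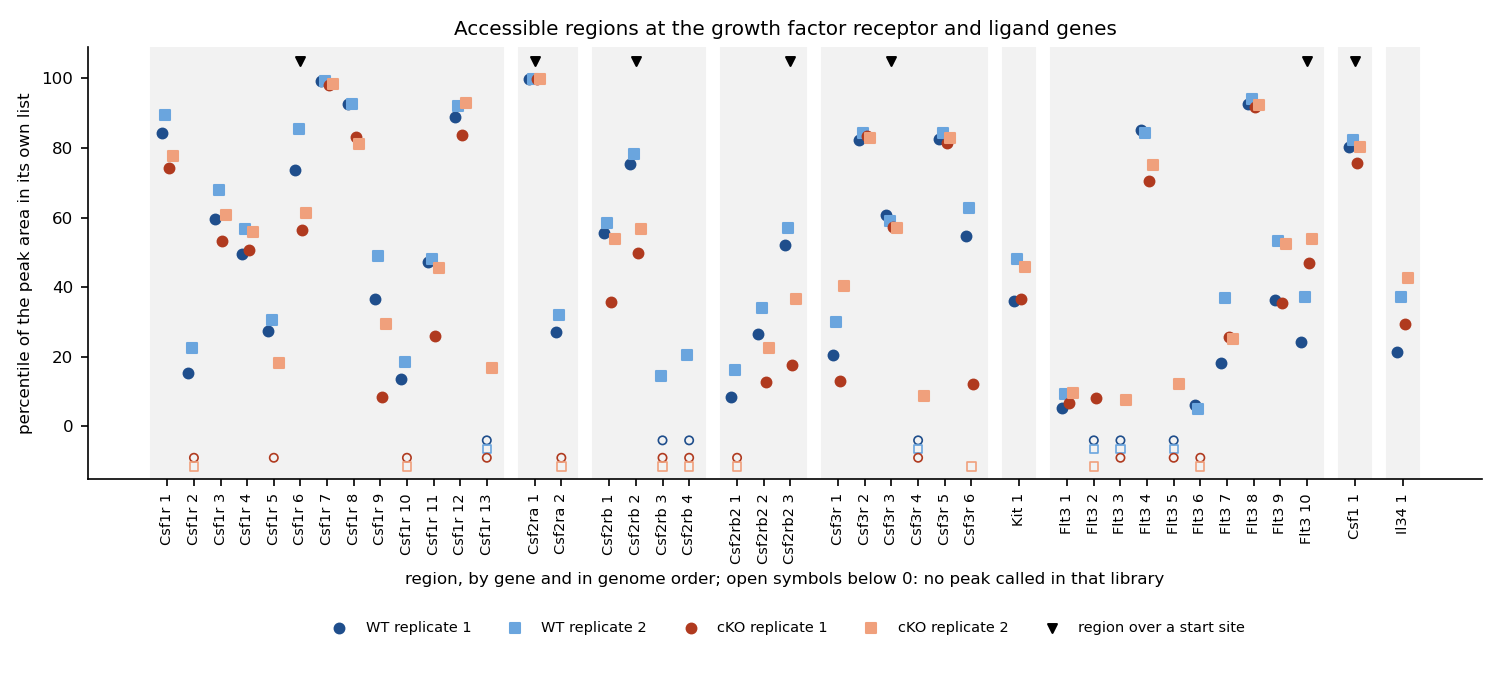
Percentile of the peak area (vertical axis, within each library's own list) for the 41 regions of the 9 genes (horizontal axis, in genome order), with 1 symbol per library; open symbols below 0 mark libraries without a peak, and triangles mark regions over a start site. No region has symbols for both cKO libraries and none for WT, and the 5 lost regions all lie below percentile 32 in WT.

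Peaks covered an annotated start site in all 4 libraries at 7 of the 9 genes, where 51.2% of protein-coding genes had such a region. Only Kit and Il34 had no peak over a start site. Of the 7 start regions, 2 were higher and 3 were lower in cKO, where 18.4% and 16.2% of the start regions of protein-coding genes were. By area, both chains of the GM-CSF receptor had start regions past the threshold, the ligand-binding chain upward and the beta chain downward. By the area per covered base, given below, the ligand-binding chain did not pass.

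**Figure D2:**
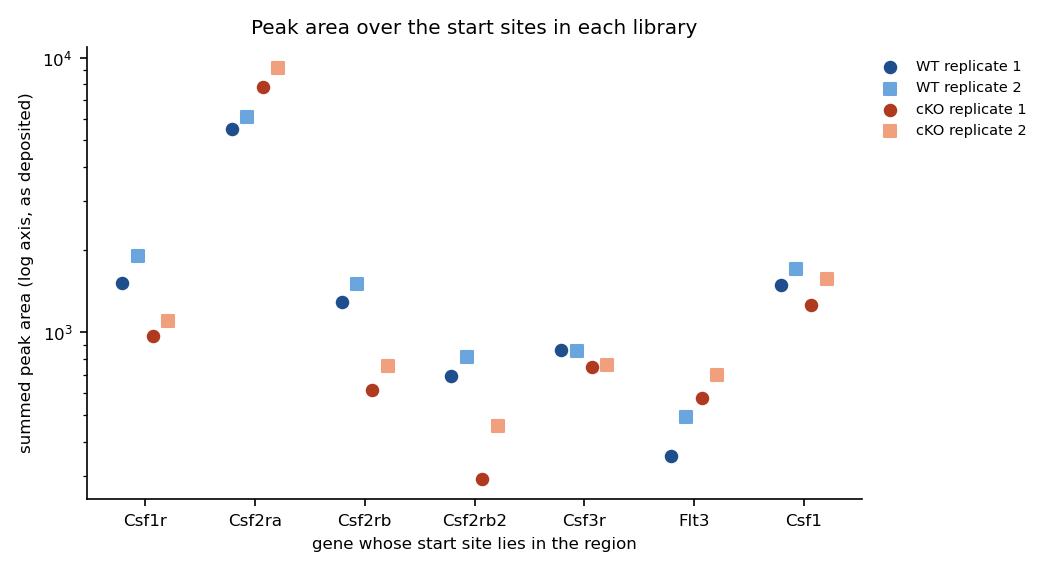
Summed peak area over the start sites (vertical axis, log scale, as deposited) in each of the 4 libraries, for the 7 genes with such a region. The cKO symbols lie well below the WT symbols for Csf1r, Csf2rb and Csf2rb2, narrowly below for Csf3r and above them for Csf2ra and Flt3, while for Csf1 the genotypes overlap.

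Csf1r (ENSMUSG00000024621.16, chr18:61100598-61132149, plus strand) was the richest locus, with 13 regions, where the median protein-coding gene had 2 and 3.38% of such genes had 13 or more. Of its regions, 9 were shared, 2 were lost, none was gained, and 5 of the shared ones were lower in cKO. The annotated gene body starts upstream of the main transcript, so some regions that precede this transcript lie inside the gene. The median log2 difference over the 9 shared regions was −0.28, and all but 1 of them had a value below 0.

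The start region of the main transcript (chr18:61105438-61107223) reached into intron 2. Its highest peak was at percentiles 73.7 and 85.3 in WT replicates 1 and 2 against 56.4 and 61.4 in cKO. Both cKO values were below both WT values. The log2 area difference was −0.60 (limma, SE 0.08, adjusted p = 0.000569), a cKO area of 0.661 times that of WT. The signal fell into 2 peaks in every library except WT replicate 2, where it was 1 peak.

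The strongest Csf1r region (chr18:61107433-61109162) lay in intron 2, the intron of the known macrophage enhancer, and its percentiles were 99.2 and 99.3 in WT against 98.1 and 98.4 in cKO. The site was among the largest peaks of each list in both genotypes. Its log2 area difference was −0.26 (limma, SE 0.04, adjusted p = 0.00115). With median centring in place of quantile normalization the difference was 0.01 (adjusted p = 0.913), so its direction depended on the scaling. At the summit, the −log10 p-value stood at percentiles 96.6 and 97.8 in WT against 92.5 and 95.8 in cKO, which again did not overlap.

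Farther along the gene, intron 11 held 2 lower regions. The first (chr18:61119402-61121081) was at percentiles 92.7 and 92.7 in WT against 83.1 and 81.0 in cKO, a log2 difference of −0.60 (limma, SE 0.083, adjusted p = 0.000633). The second (chr18:61122600-61123004) was a weaker site at 36.7 and 48.9 in WT against 8.52 and 29.4 in cKO, with the largest percentile difference of the gene and a log2 difference of −0.72 (SE 0.172, adjusted p = 0.00938). Its call was lost without WT replicate 2 (−0.67, adjusted p = 0.0683) and without cKO replicate 1 (−0.47, adjusted p = 0.0614). The cKO values of both regions were below the WT values.

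Upstream, a region whose centre was 14435 bp before the start (chr18:61090557-61091717) was at percentiles 84.4 and 89.5 in WT against 74.1 and 77.8 in cKO. Its log2 difference was −0.50 (limma, SE 0.078, adjusted p = 0.00117), and the groups did not overlap. This region also lies within 10 kb of Pdgfrb, the neighbouring gene for a related receptor. The 2 lost regions were weak. The upstream one (chr18:61095578-61095800) was at percentiles 15.3 and 22.6 in WT, and the one in intron 15 (chr18:61126156-61126577) was at 13.5 and 18.6.

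The other shared regions of Csf1r had log2 differences from −0.28 to 0.11 and did not pass the threshold (adjusted p from 0.203 to 0.749). They included the large region at the 3′ end (chr18:61130834-61133243), which also overlaps Hmgxb3 and stood at 88.8 and 92.1 in WT against 83.6 and 92.9 in cKO. Without cKO replicate 2 that region was lower by limma (log2 difference −0.30, adjusted p = 0.0156). One upstream region was missing only from cKO replicate 1, and one in Hmgxb3 was called only in cKO replicate 2. Within 200 kb outside the Csf1r window, 4 of 8 shared regions were lower and 0 higher by the same limma test, with a median log2 difference of −0.23. Lower areas were thus also found around the gene, and whether Csf1r differs from its surroundings was not tested.

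**Figure D3:**
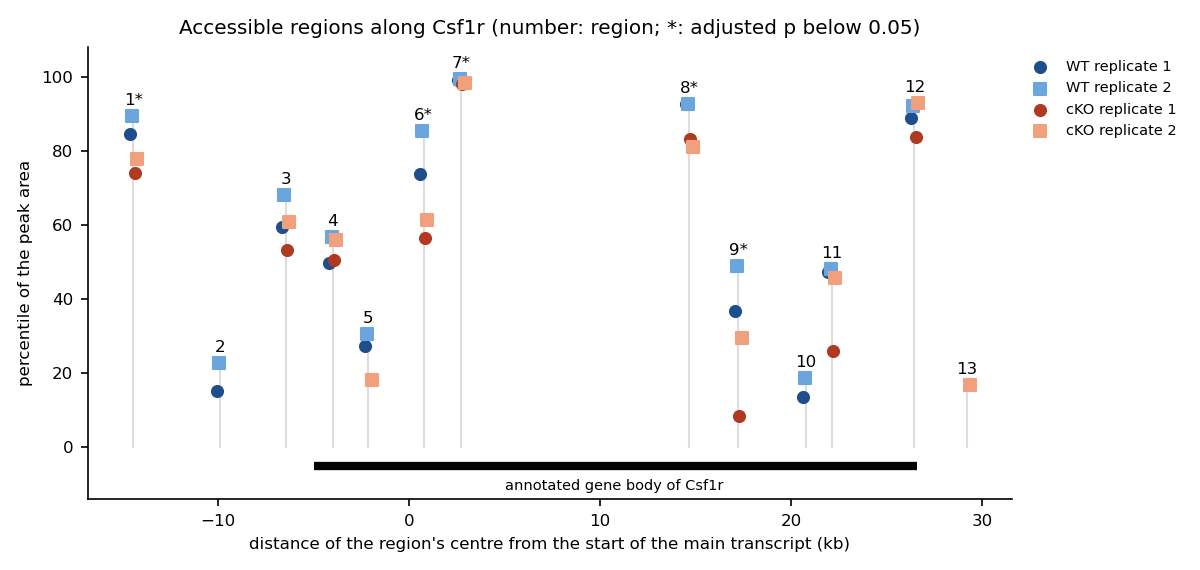
Percentile of the peak area (vertical axis) against the distance of each region's centre from the start of the main Csf1r transcript in kb (horizontal axis), with 1 symbol per library, slightly offset; numbers name the regions and asterisks mark those past the limma threshold. In regions 1, 6, 7, 8 and 9 both cKO symbols lie below both WT symbols, and regions 2 and 10 have WT symbols only.

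Csf2ra (ENSMUSG00000059326.7, chr19:61223957-61228429, minus strand) held 2 regions. The first (chr19:61225360-61228841) spanned 3482 bp, covering the start site and most of the gene, and was at percentiles 99.7 and 99.7 in WT against 99.9 and 99.9 in cKO. Its summed areas were 5493 and 6063 in WT against 7847 and 9202 in cKO, higher in both cKO libraries. The log2 difference was 0.42 (limma, SE 0.039, adjusted p = 0.000118), a cKO area of 1.34 times that of WT, and 0.75 with median centring. Its peaks covered 2822 and 3023 bp in WT against 3377 and 3468 bp in cKO, so that the open stretch was also wider. At the summit the percentiles of the −log10 p-value were 90.6 and 92.9 in WT against 96.5 and 95.9 in cKO, which did not overlap either. The bases around its summit are shown because this was the largest peak at any of the 9 genes. They lie inside the gene, downstream of the transcript start at 61228418, and may include coding bases. Capitals mark the letters TTCNNNGAA, the core of STAT sites, found on either strand. These letters are therefore not upstream of the start, and whether they are bound was not tested.
Csf2ra start region, chr19:61227204-61227365, minus strand: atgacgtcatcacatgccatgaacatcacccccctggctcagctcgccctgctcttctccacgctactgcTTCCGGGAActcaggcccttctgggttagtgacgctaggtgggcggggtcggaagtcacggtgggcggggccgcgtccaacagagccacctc

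The second Csf2ra region (chr19:61230446-61230825), 2217 bp upstream of the start, was lost. It was at percentiles 27.2 and 32.0 in WT and had no peak in cKO, the highest percentiles among the 5 lost regions. The surroundings of Csf2ra went the other way from its start region. Within 200 kb outside the window, 0 of 8 shared regions were higher and 5 were lower, with log2 differences from −0.49 to −0.14.

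Csf2rb and Csf2rb2 lie side by side on chromosome 15 in opposite orientation, Csf2rb (ENSMUSG00000071713.6) at chr15:78325752-78353847 on the plus strand and Csf2rb2 (ENSMUSG00000071714.7) at chr15:78282507-78305721 on the minus strand. They are near copies of each other. An alignment with blastn covered 84.4% of the Csf2rb body and 97.1% of the Csf2rb2 body at 91.3% identity, and every region of both genes lay in aligned sequence. Of all stretches of 50 consecutive bases that can be read within the start regions, 3.58% at Csf2rb and 5.95% at Csf2rb2 occur unchanged in the other gene. How the authors placed reads that match both genes is not given in the sources used here, so values of one gene may contain reads of the other.

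The start region of Csf2rb (chr15:78325654-78326316) was at percentiles 75.4 and 78.3 in WT against 49.8 and 56.7 in cKO. The areas were 1290 and 1497 in WT against 616 and 756 in cKO, and the groups were far apart. The log2 difference of −0.86 (limma, SE 0.09, adjusted p = 0.000184), a cKO area of 0.55 times that of WT, was the largest fitted decrease among the 27 shared regions. The start region of Csf2rb2 (chr15:78305524-78305942) was weaker, at 52.2 and 57.1 in WT against 17.6 and 36.6 in cKO, with a nearly equal log2 difference of −0.85 (SE 0.15, adjusted p = 0.00222). Both start regions are shown because they fell by like amounts and are copies of each other; the bases are the parts of the windows around the summits that lie outside UTRs. Capitals mark PU.1 (GAGGAAGT), C/EBP (TTGCNNAA) and STAT (TTCNNNGAA) letters on either strand.
Csf2rb start region, chr15:78325910-78325989, plus strand: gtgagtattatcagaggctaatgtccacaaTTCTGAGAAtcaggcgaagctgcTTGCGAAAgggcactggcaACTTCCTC
Csf2rb2 start region, chr15:78305722-78305850, minus strand: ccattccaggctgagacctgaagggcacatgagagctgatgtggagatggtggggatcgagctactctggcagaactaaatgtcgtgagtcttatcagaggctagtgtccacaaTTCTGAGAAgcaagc

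The longest run that these stretches share is 18 bases, tgtccacaaTTCTGAGAA, and it contains the STAT letters of both. The PU.1 letters occurred within 100 bases of the summit in both start regions, and the C/EBP letters only in that of Csf2rb. A blastn alignment of 1643 columns ran over both start regions at 87.7% identity.

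The other shared regions of this pair were upstream of Csf2rb (chr15:78320866-78321305), at 55.7 and 58.3 in WT against 35.7 and 53.8 in cKO, and in intron 1 of Csf2rb2 (chr15:78300820-78301108), at 26.6 and 34.1 in WT against 12.9 and 22.4 in cKO. In both, each cKO value was below each WT value, with log2 differences of −0.31 (limma, SE 0.144, adjusted p = 0.11) and −0.33 (SE 0.168, adjusted p = 0.141) that did not pass the threshold. Without cKO replicate 2 the upstream region of Csf2rb did pass (−0.48, adjusted p = 0.0254). A lost region in intron 1 of Csf2rb2 (chr15:78298531-78298944) was at 8.6 and 16.1 in WT. Csf2rb also had 2 intronic regions called only in WT replicate 2, the library with the most peaks. Within 200 kb outside the Csf2rb window, 2 of 10 shared regions were higher and 3 lower.

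Csf3r (ENSMUSG00000028859.14, chr4:126024550-126044440, plus strand) had 6 regions, and none of the 4 shared ones passed the threshold. Its start region (chr4:126024385-126025335) was at percentiles 60.7 and 58.9 in WT against 57.3 and 57.0 in cKO, and it also had the largest percentile difference among the shared regions of the gene. Both cKO values were below WT by a few percentiles, and the log2 difference was 0.01 (limma, SE 0.141, adjusted p = 0.976). The strongest site of the gene itself (chr4:126018791-126019399), 5455 bp upstream, stood at 82.1 and 84.4 in WT against 83.4 and 82.8 in cKO, overlapping. A weaker upstream region was at 20.5 and 30.1 in WT, with one cKO library below and one above these values. Downstream of the gene, a region over the start site of the neighbouring Mrps15 stood at 82.6 and 84.3 in WT against 81.3 and 82.8 in cKO, overlapping. A further region inside Mrps15 (chr4:126051516-126051967) was at 54.7 and 62.8 in WT, at 12.2 in cKO replicate 1 and without a peak in cKO replicate 2. It was not in the test of shared regions. Without cKO replicate 2 its log2 difference was −1.34 (limma, adjusted p = 0.000214), and with the missing area set to the lowest of the list it was −1.61 (adjusted p = 0.00208). One region in intron 4 was called only in cKO replicate 2.

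Kit (ENSMUSG00000005672.12, chr5:75574916-75656722, plus strand) had a single region in its whole window although the gene body is 81807 bp long. The region (chr5:75604313-75604598) lay in intron 1, 29500 bp from the start, at percentiles 36.1 and 48.0 in WT against 36.7 and 45.9 in cKO. The groups overlapped, and the log2 difference was 0.08 (limma, SE 0.136, adjusted p = 0.645). No start site of Kit was under a peak in any of the 4 libraries, and a site just below the peak caller's limit would also appear as no peak.

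Flt3 (ENSMUSG00000042817.15, chr5:147330741-147400489, minus strand), a receptor typical of dendritic cell and lymphoid progenitors, had 10 regions, of which 6 were shared. Its start region (chr5:147400194-147400685) also overlaps the annotated Gm26597. It was at percentiles 24.2 and 37.3 in WT against 47.0 and 53.9 in cKO, with areas of 354 and 493 in WT against 575 and 702 in cKO. Both cKO libraries were above both WT libraries. The log2 difference was 0.79 (limma, SE 0.137, adjusted p = 0.00205), a cKO area of 1.73 times that of WT, which was the largest fitted increase among the 27 shared regions, on a modest peak.

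In contrast, a region in intron 9 (chr5:147362635-147363542) was at 85.1 and 84.4 in WT against 70.4 and 75.1 in cKO. The log2 difference was −0.50 (limma, SE 0.079, adjusted p = 0.00135), without overlap of the groups, so the start and this intronic site of the same gene went opposite ways. A nearby region of the same intron (chr5:147366067-147366480) was lost, from percentiles of 6.07 and 5.13 in WT, the weakest of the 5 lost regions. The largest Flt3 region (chr5:147388676-147389685), in intron 1, was at 92.6 and 94.1 in WT against 91.7 and 92.4 in cKO and did not pass the threshold (log2 difference −0.06, SE 0.052, adjusted p = 0.346). Another 3 shared regions had log2 differences from 0.01 to 0.08, and 3 regions were called in a single cKO library each, below percentile 13. The bases of the 2 regions that passed are shown because they differ in direction. Capitals mark PU.1 and C/EBP letters in the intronic window; the stretch upstream of the start held none of the motifs searched apart from the short ETS core GGAA.
Flt3 intron 9 region, chr5:147363134-147363334, minus strand: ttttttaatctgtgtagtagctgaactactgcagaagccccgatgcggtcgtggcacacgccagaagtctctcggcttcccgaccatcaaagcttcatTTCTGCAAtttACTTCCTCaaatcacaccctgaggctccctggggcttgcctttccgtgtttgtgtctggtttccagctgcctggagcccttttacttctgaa
Flt3 start region, upstream part, chr5:147400490-147400685, minus strand: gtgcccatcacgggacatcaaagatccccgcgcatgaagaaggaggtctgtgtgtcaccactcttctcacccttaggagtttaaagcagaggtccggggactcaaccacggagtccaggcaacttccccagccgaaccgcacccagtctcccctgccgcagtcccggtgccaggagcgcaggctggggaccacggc

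The ligand genes had 1 region each, as many as 38.8% of protein-coding genes had at most. At Csf1 (ENSMUSG00000014599.10, chr3:107741048-107760469, minus strand), the region covered the start site (chr3:107759778-107760819), at percentiles 80.3 and 82.3 in WT against 75.6 and 80.2 in cKO. The cKO values were slightly below WT, and the log2 difference was −0.09 (limma, SE 0.069, adjusted p = 0.322). At Il34 (ENSMUSG00000031750.15, chr8:110741829-110805924, minus strand), which encodes the second ligand of CSF1R and is best known from skin and brain, no start site had a peak. Its only region (chr8:110812425-110812746) lay 6682 bp upstream inside Sf3b3, at 21.4 and 37.1 in WT against 29.5 and 42.6 in cKO, overlapping, with a log2 difference of 0.33 (SE 0.155, adjusted p = 0.116).

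**Figure D4:**
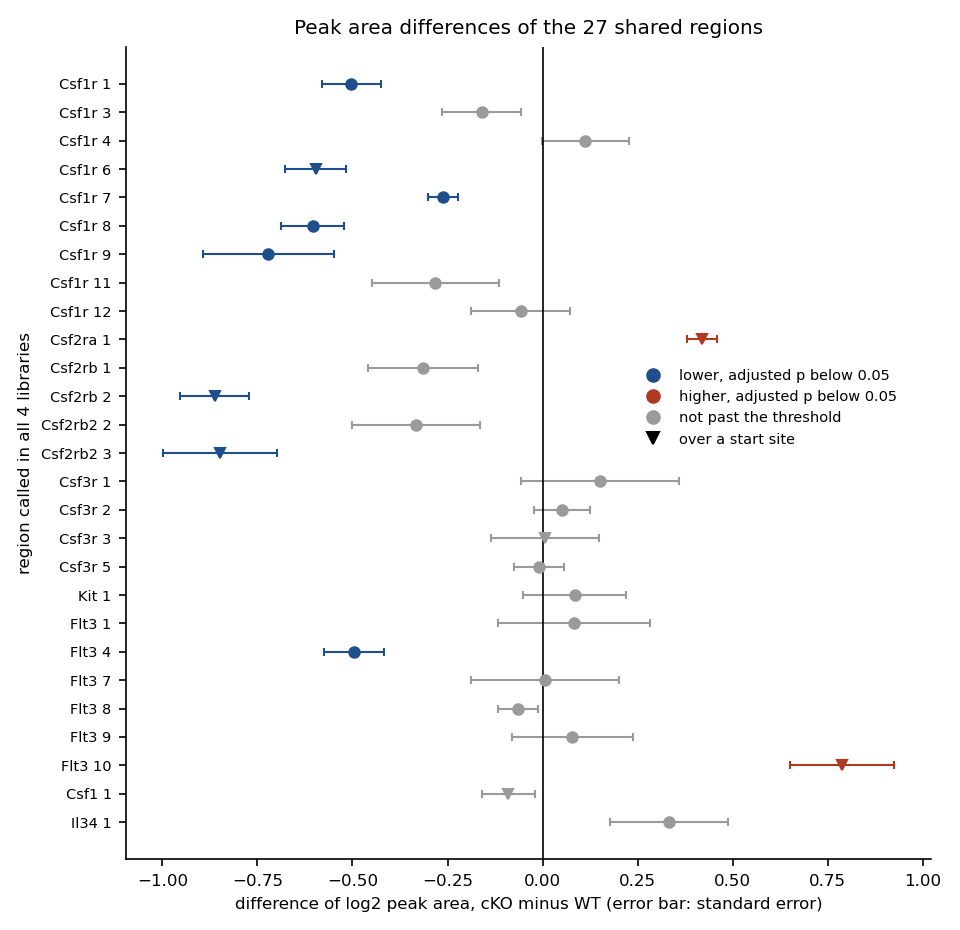
Difference of log2 summed peak area, cKO minus WT (horizontal axis, bars are standard errors from limma), for the 27 regions called in all 4 libraries (vertical axis); triangles mark start regions and colours mark the side of the threshold. The 5 blue Csf1r points lie between −0.72 and −0.26, and the 2 red points are the start regions of Csf2ra at 0.42 and Flt3 at 0.79.

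Levels between genes were compared on the percentile of the −log10 p-value at the summit, which does not grow with the length of a region. On this scale the Csf1r region of intron 2 (92.5 to 97.8 over the 4 libraries) and the Csf2ra start region (90.6 to 96.5) were the highest and overlapped. The largest Flt3 region, in intron 1 (86.5 to 93.7), and the upstream Csf3r region (89.2 to 91.5) overlapped with each other and with the Csf2ra range. Among start regions the ranges were 59.5 to 64.1 for Csf1, 44.0 to 68.3 for Csf1r, 38.5 to 74.5 for Csf2rb, 44.0 to 56.2 for Csf3r, 32.3 to 61.4 for Flt3 and 17.0 to 59.9 for Csf2rb2. The range of Csf1 lay above that of Csf3r, and each other pair of these start regions overlapped. In WT alone the Csf2rb start (71.2 and 74.5) was above that of Csf1r (68.3 and 67.5), and in cKO it was not (38.5 and 46.6 against 44.0 and 52.4).

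The size of a peak's area depends on its height and its length, and the calls depended on this choice. When the mean height, the area per covered base, was tested with limma in place of the area, 1 of the 27 regions remained past the threshold in the lower direction and 0 in the higher one, where 3.04% and 2.29% of all shared regions were. At an unadjusted p below 0.05 these counts were 3 and 2, where 14% and 13% of all shared regions were. The region that passed was the Csf2rb start (log2 difference −0.82, adjusted p = 0.033), and the other called regions kept their direction with adjusted p from 0.0571 for the Flt3 start (0.73) to 0.625 for the first intron 11 region of Csf1r (−0.16). The Csf2ra start was at 0.35 (adjusted p = 0.0881), the Csf2rb2 start at −0.43 (adjusted p = 0.151) and the Flt3 region of intron 9 at −0.26 (adjusted p = 0.184). This measure was added after the data were seen.

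**Figure D5:**
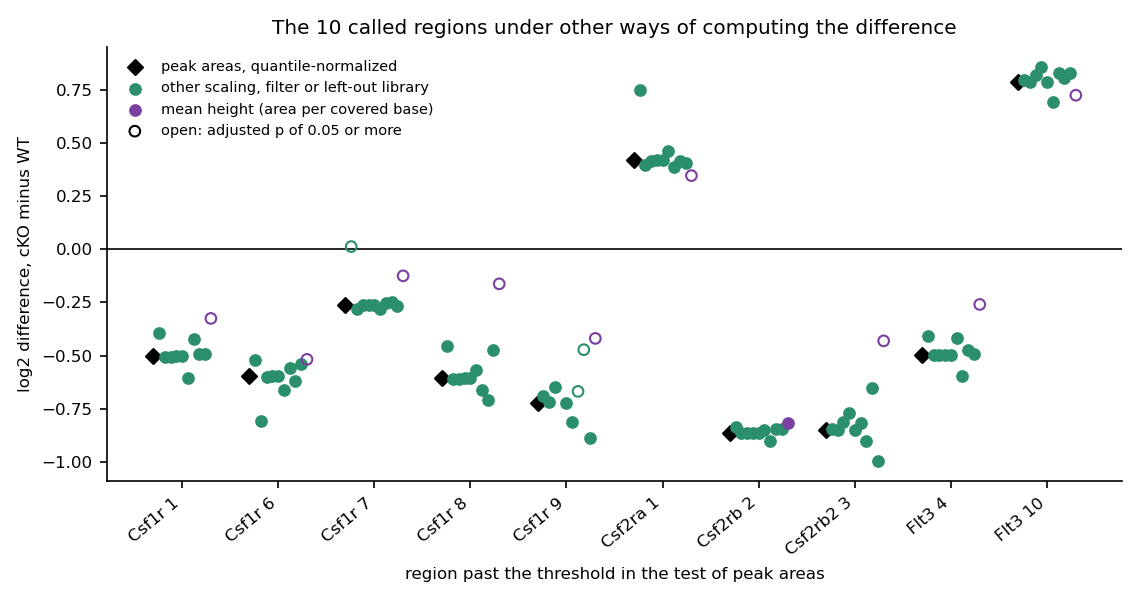
Log2 difference, cKO minus WT (vertical axis), of the 10 regions past the limma threshold (horizontal axis) under quantile-normalized areas (black), other scalings, filters and left-out libraries (green) and the mean height (violet); filled symbols are past an adjusted p of 0.05. The violet symbols lie nearer to 0 than the black ones, and only that of the Csf2rb start is filled.

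Motif letters were counted in the window of 100 bases on each side of the summit of each of the 41 regions, on both strands. The PU.1 letters GAGGAAGT, bound by the factor that drives macrophage genes, occurred in 7 windows, against 11.1% of all 71243 windows. C/EBP letters occurred in 6 (12.3% of all windows), AP-1 letters TGANTCA in 5 (16.5%), RUNX letters AACCACA in 4 (8.31%), STAT letters in 6 (6.1%) and the IRF motif in 1 (3.9%), at the Csf1 start. The ETS core GGAA, which is part of the PU.1 letters, was in 38 of 41 and in 94.9% of all windows. All 5 member windows with STAT letters other than that of Csf2ra belonged to Csf2rb and Csf2rb2, where windows share sequence and are not independent. At Csf1r, PU.1 letters were found in 3 of 13 windows and STAT letters in 0 of 13.

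The wider pathway was taken as 36 further genes: ligands, receptors and the signalling proteins downstream. They held 264 regions, of which 9 (3.41%) were gained and 18 (6.82%) lost, near the 3.72% and 7.25% of all regions. Of their 168 shared regions, 29 (17.3%) were higher and 45 (26.8%) lower in cKO by limma, where 20.7% and 20.8% of all shared regions were. Of the lower ones, 1 was the upstream region of Csf1r near Pdgfrb. Start sites were under a peak in all 4 libraries for 29 of the 36, namely all 26 signalling genes, Il3ra, Kitl and Flt3l. The start region of Il3ra, the IL-3 binding chain that pairs with the products of Csf2rb2 and Csf2rb, was higher, at percentiles 99.4 and 99.5 in WT against 99.7 and 99.7 in cKO (log2 difference 0.22, SE 0.039, adjusted p = 0.00246). By area, the start regions of the ligand-binding chains for GM-CSF and IL-3 were higher, while those of both beta chain genes were lower. The beta chain genes are near copies whose values may share reads, so their decreases may not be independent. By mean height the starts of Csf2ra (limma, adjusted p = 0.0881) and Csf2rb2 (adjusted p = 0.151) did not pass. No mean height value is given for Il3ra. No start site of Il5ra, another receptor in the list, was under a peak.

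Of the 26 start regions of signalling genes, 2 were higher and 9 lower, where 18.4% and 16.2% of the start regions of protein-coding genes were. The higher ones were Cbl (log2 difference 0.52), a ubiquitin ligase that turns over activated receptors, and Socs1 (0.27), an inhibitor of JAK kinases. The lower ones were Sos1 (−0.78), the exchange factor that activates Ras, Pik3r1 (−0.46), a PI3K regulatory subunit, the adaptor Grb2 (−0.46 on the same scale), the transcription factors Stat5b (−0.39) and Stat5a (−0.23), the feedback inhibitor Cish (−0.28), the phosphatase Ptpn6 (−0.23), the ubiquitin ligase Cblb (−0.23) and the adaptor Tyrobp (−0.18). The starts of Jak2, Kitl and Flt3l had log2 differences of −0.07, 0.09 and −0.08 that did not pass. The gained regions were at Kitl, Il3ra, Stat5b, Grb2, Plcg2, Inpp5d, Dok2, Cish and Spry2, 1 each. The lost ones were at Pdgfrb, Grb2, Plcg2 and Ptpn11, with 2 each, and at Jak2, Stat5b, Shc1, Pik3r1, Lyn, Fes, Tyrobp, Cbl, Cblb and Cish, with 1 each. Genes with shared regions that passed, and with none gained or lost, included Csf3, Flt3l, Pdgfra, Stat5a, Sos1, Gab2, Pik3cd, Ptpn6, Socs1 and Socs3.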

How the data were processed

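The authors aligned paired reads to mm10 with Bowtie2 2.5.1 and made a peak list for every library on its own with Genrich, whose defaults they kept. Read filters, duplicate removal, the handling of reads with several matches and any shift of read ends for the transposase are not given in the sources used here. The deposited signal column holds each peak's area, and the deposited −log10 p-value column holds the value at the summit. The deposited score column is limited at a maximum, and it was not used. Read depth is unknown, so no counting interval could be given. The lowest deposited area was just above 200 in each list, so a site below that limit appears as no peak.

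Peaks of the 4 lists overlapping by at least 1 bp were merged (Python 3.11.15, pandas 2.3.3). A region belonged to a gene if it overlapped the gene body with 10 kb on both sides. Summed areas of the 44820 regions called in all 4 libraries were log2-transformed, quantile-normalized and tested with limma 3.58.1 (R 4.3.3, moderated test with a mean-variance trend, two-sided). Benjamini-Hochberg adjustment ran over all 44820 regions at a threshold of 0.05. The test was also run on simulated data with noise drawn independently for each library. Its outcome is not reported here, and no conclusion is drawn from it. The study compared read counts, which peak lists do not hold. The 2 libraries per genotype are labelled as biological replicates. The standard errors and p-values rest on the spread between them, moderated toward a trend fitted over all 44820 regions.

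The text describes, for each gene, the region over a start site, the gained and lost regions, those past the limma threshold and the shared region with the largest percentile difference. Members, lists and motifs were chosen with earlier results of these data known, and the regions within 200 kb, the levels between genes and the run shared by Csf2rb and Csf2rb2 were added after the values were seen. The result for 1 gene of the wider pathway is not reported here. Sequences come from the RefSeq assembly of GRCm38, the same build as mm10. Csf2rb and Csf2rb2 were aligned with blastn 2.17.0. Alternatives covered the scaling, the measure of peak size, filters, windows, a block for the replicate number and leaving out each library.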

Additional observations from a re-analysis of the deposited data

How the results depend on the processing

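Counts of regions at the 9 genes depended on the peak threshold and the window. Lost regions numbered 2 in place of 5 with peaks above the median area of their list (7.06% of all regions) or with lists of equal length (7.3%), 3 in the gene bodies alone and 9 with 50 kb on each side (7.25%). Shared regions numbered 13 with peaks above the median area (64.7% of all regions) and 55 with 50 kb on each side (62.9%), in place of 27. Gained regions numbered 2 with 50 kb on each side (3.72%). The total number of regions in the 50 kb windows is not given here, so these counts cannot be set against the shares. Leaving out each library in turn gave 0 to 4 gained, 5 to 7 lost and 27 to 28 shared regions. With a library left out a region needs 1 call fewer, so the shares over all regions also changed. Without H3.3cKO replicate 1, 4 regions counted as gained, where 9.16% of all regions did, and 6 as lost, where 7.66% did. Without WT replicate 1, 7 counted as lost, where 14.4% of all regions did. The shared share of all regions was 66.8% to 68.6%. In the limma test, leaving out a library gave 2 higher and 7 to 11 lower regions (11 without H3.3cKO replicate 2, the added ones being the 3′ region of Csf1r, the upstream region of Csf2rb and the region in Mrps15). With the mean height, 0 were higher and 1 lower, and over all 44820 regions the calls fell from 9299 higher and 9310 lower to 1028 and 1361. The other limma alternatives gave 2 higher and 7 to 12 lower regions, from different numbers of fitted regions. With missing areas set to the lowest of the list, 12 of 34 were lower, where 22.5% of all fitted regions were. With regions above the median area in at least 1 library, 7 of 19 were lower, where 23.6% were. Median centring gave 7 of 27, where 16.7% were, and the main test 8 of 27, where 20.8% were. The shares also changed when a library was left out, so the counts from those fits are not directly comparable with the main ones. Median centring moved the calls over all regions to 12943 higher and 7499 lower, a share of higher calls of 63.3% where quantile normalization gave an even split, and the median log2 difference of all regions to 0.10.

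The direction changed for Csf1r region 7 with median centring (0.0128) and for regions that had not passed the threshold: the Csf3r start with the −log10 p-value at the summit (−0.0501), with the mean height (−0.197) and when libraries were left out (from −0.154 without WT replicate 2 to 0.154 without WT replicate 1), Kit intron 1 with the mean height (−0.12), and the Csf1 start with median centring (0.00693) and the −log10 p-value (0.0244). The cause was not tested. Replicate numbers are shared by the genotypes, but nothing says that they mark a shared day or litter, and the 2 pairs deviated together with a correlation of 0.126. With the replicate number as a block, 2 regions were higher and 8 lower, and over all regions 10229 were higher and 10176 lower. With 2 libraries per genotype and unknown depth, a difference that did not pass the threshold is not shown to be absent, and a region missing from a list may lie just below the caller's limit.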
